A study of Mus musculus with 70 samples.

Results

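The comparison was of mCherry-positive colon epithelial cells from 2 caMEK1 mice with those from 2 control mice, all drinking doxycycline, across every gene of the deposited FPKM table (fragments per kilobase of transcript scaled to the mapped fragments of the library). It was chosen by the group labels alone and takes 4 of the 70 libraries of the series. caMEK1 is a constitutively active form of the kinase MEK1, here a frog (Xenopus) sequence switched on by doxycycline. The animals were C57BL/6 chimeras of 2 colours, all labelled male: primary cells, in which the kinase can be expressed, are mCherry-positive, surrounding cells are GFP-positive, and the controls carried both colours. Doxycycline ran for 7 days in water with 10 mg/mL sucrose, at 0.2 mg/mL for caMEK1 and 2 mg/mL for control animals, so the dose and the kinase cannot be told apart. The 4 GFP libraries of the same animals and 3 mCherry libraries of caMKK6 mice (constitutively active human MKK6, with doxycycline at 2 mg/mL) entered tests of differences. Crypts were freed with EDTA and DTT, dissociated with trypsin and sorted live by colour. Each mCherry library came from an animal of its own, with 2 in each group. The p values rest on a spread between libraries pooled over all 9 colon groups (23 libraries), not on these 4 animals alone. Unless an animal block is named, the 2 colours of an animal counted as independent libraries.

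MEK1 phosphorylates ERK1 and ERK2, and active ERK raises transcription factors of the ETS and AP-1 families together with phosphatases, Sprouty proteins and other brakes that feed back on the pathway. Sustained ERK activity is a classic trigger of oncogene-induced senescence, a growth arrest held by CDK inhibitors and joined by the release of cytokines, proteases and growth factors. The colon epithelium renews itself from stem cells in the crypt base that depend on Wnt signals, and yields absorptive colonocytes, mucus-making goblet cells, hormone-making enteroendocrine cells and tuft cells. After injury it can pass through a fetal-like state marked by Ly6a, Anxa1 and Clu.

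The kinase and the reporters were read first, as a check of the labels. The MEK1 transgene stood at 288 and 235 FPKM in the caMEK1 mCherry libraries and was listed at 0 in both control libraries. The mCherry reporter stood at 285 and 217 FPKM in caMEK1 and at 14438 and 11920.4 FPKM in control mCherry cells, a difference of reporter level between groups that were sorted on the same colour. EGFP read 13.1 and 17.8 FPKM in caMEK1 mCherry cells and 42.6 and 114 FPKM in control mCherry cells, against 815 and 619.9 FPKM in caMEK1 and 711 and 577 FPKM in control GFP cells of the same animals. That is 1.6% and 2.86% of the level in the GFP library of each caMEK1 animal, and 5.99% and 19.7% in the control animals. In the other direction, the caMEK1 GFP libraries held 12.3 and 28.7 FPKM of the MEK1 transgene. The levels of 4 Y-linked genes (Ddx3y, Eif2s3y, Kdm5d and Uty) were at most 0.61 FPKM in the caMEK1 libraries on doxycycline, whose animals are labelled male. Of the 4, Eif2s3y was called lower in mCherry cells and all 4 in GFP cells. Eif2s3y, for instance, was listed at 0 in all 4 caMEK1 libraries on doxycycline, stood at 1.64 and 7.86 FPKM in control mCherry cells and reached 12.8 and 8.7 FPKM in control GFP cells. Whether the genetic sex of the cells has a part in the differences below was not tested. The control mCherry libraries were sequenced deeper (12277329 and 12957014 reads in all, read back from the FPKM steps) than the caMEK1 ones (8203222 and 8066418), within a colon range of 6671204 to 17396973. Epcam, a marker of all epithelium, stood at 800.1 and 861 FPKM in caMEK1 and 737 and 674 FPKM in control cells, and Cdx2, a transcription factor of intestinal identity, at 136 and 84.3 FPKM in caMEK1 and 62.5 and 155 FPKM in control cells. Neither gene passed the test (adjusted p = 0.38 and 0.85 in limma). Of 10 markers of gut epithelium 3 rose (Krt18, Vil1 and Lgals4) and 1 fell (Cdx1), and their mean log2(FPKM + 1) was 9.42 in both caMEK1 libraries and 8.82 and 8.74 in the control ones.

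**Figure D1:**
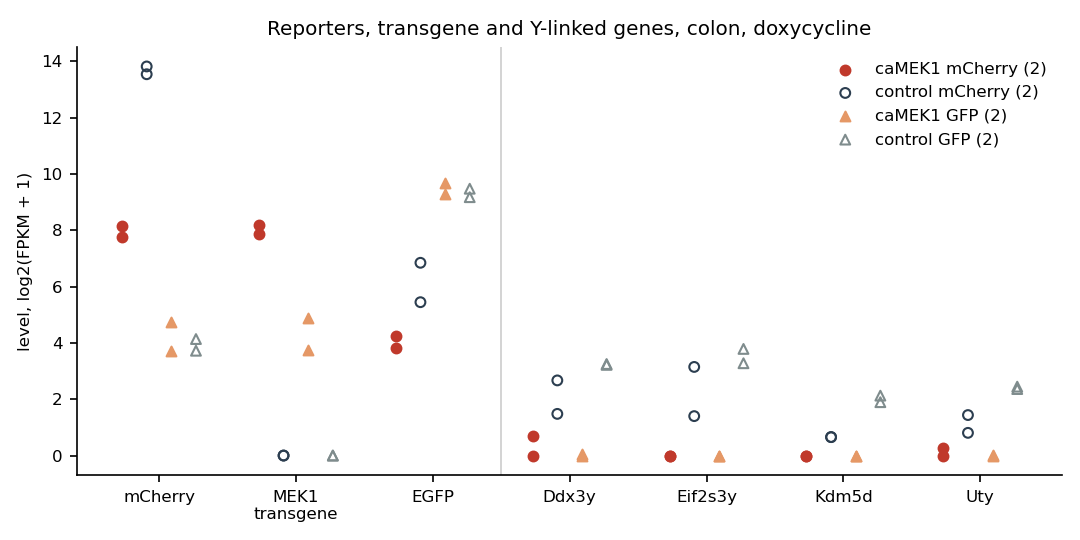
Level, as log2(FPKM + 1), of the reporters, the MEK1 transgene and 4 Y-linked genes in the 8 colon libraries on doxycycline (filled, caMEK1; open, control; circles, mCherry cells; triangles, GFP cells; 1 point per library). The transgene is listed at 0 in all 4 control libraries, and Eif2s3y and Kdm5d are listed at 0 in all 4 caMEK1 libraries.

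Of 11542 genes tested, 1101 were higher (9.54%) and 1383 lower (12%) in caMEK1 mCherry cells, 2484 in all (21.5%), at an adjusted p below 0.05 in limma with the Benjamini-Hochberg correction over all genes. Fold changes are differences of log2(FPKM + 1) with their standard error (SE), which understates the change of low genes, and the words rose and fell are kept for genes past that threshold. In every one of the 2484 genes the 2 caMEK1 libraries lay on the same side of both control libraries, as did 7155 genes whether called or not (62% of all tested, 22.8% with caMEK1 higher and 39.2% with caMEK1 lower). Where such separation is stated below for called genes, it describes their values and adds no support to the call. A change above 2 on the log2 scale was seen in 222 genes that rose and 117 that fell. The split between rises and falls depended on the scaling: the median of all genes lay at -0.14, and when each library was scaled to a common median 1344 genes rose and 1080 fell. Quantile normalization gave 1251 rises and 1112 falls. The count rested unevenly on the libraries, at 808 without caMEK1 library 2 and 1387 without control library 2, with 802 and 1245 of the 2484 calls kept in the same direction. No gene called here was called in the opposite direction under any alternative that was run. In bulk RNA, fewer cells of a type and less RNA per cell cannot be told apart, which holds for every marker list below.

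Of 17 tested feedback and output genes of ERK, 9 rose and 0 fell, with a median of 1.74 on the log2 scale. Dusp6, a phosphatase that switches ERK off in the cytoplasm, stood at 67.5 and 112 FPKM in caMEK1 and 40.9 and 15.7 FPKM in control cells (log2 fold change 1.74 ± 0.39, adjusted p = 0.0045). Both caMEK1 values were above both controls, but control library 1 was much closer to them than control library 2, and the call was lost without caMEK1 library 2 (adjusted p = 0.092) or control library 2 (0.1). Its relative Dusp5, which acts on ERK in the nucleus, read 128 and 207 against 25.3 and 12.5 FPKM (3.12 ± 0.43, adjusted p = 5e-05), and Dusp4 23.8 and 48 against 5.02 and 2.34 FPKM (2.96 ± 0.34, adjusted p = 7.8e-06). In Dusp4 and Dusp5 the lower caMEK1 library was several times above the higher control library. Spry4, a Sprouty-family brake on receptor signalling to ERK, stood at 12.7 and 17.4 against 1.64 and 1.3 FPKM (2.69 ± 0.29, adjusted p = 4.1e-06), and Spred3 at 2.41 and 5.88 against 0.0131 and 0 FPKM. Etv4, an ETS factor under ERK control, reached 19.6 and 24 against 1.65 and 5.22 FPKM (2.48 ± 0.47, adjusted p = 0.00099). The mCherry groups did not overlap in Spry4, Spred3 or Etv4, as in every called gene. For Etv4 no difference between the colours was called (0.84 ± 0.66, adjusted p = 0.55 in limma). That does not show an equal change in both. Etv4 in GFP cells read 12.7 and 18 FPKM with caMEK1 and 2.18 and 7.37 FPKM in control. This GFP change was itself not called (1.64 ± 0.47, adjusted p = 0.056 in limma). In caMKK6 mice on doxycycline Etv4 read 27.2, 38 and 38.1 FPKM in GFP cells and 8.74, 2.15 and 3.99 FPKM in mCherry cells. Epha2 (3.42 ± 0.56), a receptor kinase, Phlda1 (2.45 ± 0.34) and Ier3 (2.33 ± 0.33) rose too.

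Other members did not pass the test. Etv5, the closest relative of Etv4, stood at 3.95 and 3.57 against 5.06 and 12.3 FPKM (-0.92 ± 0.56, adjusted p = 0.25), and Spry1, Spry2, Spred1, Spred2, Epha4 and the cyclin gene Ccnd1 were not called either. Fosl1, which encodes the AP-1 subunit FRA1, was just outside the threshold at 14.7 and 22 against 7.57 and 3.57 FPKM (1.60 ± 0.57, adjusted p = 0.051) and passed it in the count model (adjusted p = 0.035). Of 16 tested immediate early genes, which respond to ERK within minutes, 1 rose and 3 fell, close to the shares over all genes (9.54% and 12%), with a median of -0.44. Ier5 rose (44.8 and 56.2 against 16.1 and 15.9 FPKM), whereas Fosb (19.3 and 20.1 against 178 and 46 FPKM, -2.15 ± 0.60), Jun (180.1 and 146 against 550.2 and 257, -1.21 ± 0.37) and Klf2 (8.38 and 4.77 against 27.7 and 12.1, -1.40 ± 0.38) fell. These falls rest on few libraries, since 1 of the 3 remained without caMEK1 library 1, and 0 without caMEK1 library 2 or without control library 1. Without control library 2 the count was 5. The rise of Ier5 was not called without caMEK1 library 2.

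Genes of the endogenous cascade moved in both directions. Endogenous Map2k1, the mouse gene for MEK1, stood at 54.6 and 59.4 against 66 and 32.7 FPKM and did not pass the test (0.29 ± 0.31, adjusted p = 0.54). Of 20 cascade genes tested 5 rose and 3 fell, with a median of 0.11. Over all genes 9.54% rose and 12% fell, so the falls were close to the general share. With the 4 libraries fitted alone the cascade counts were 1 rise and 0 falls. Map2k2, for MEK2, rose (41.6 and 43.2 against 20.3 and 19.4 FPKM, 1.06 ± 0.19), as did Map2k3 (1.28 ± 0.23), which activates p38. Map2k6, the p38 activator, fell (4.78 and 2.81 against 6.91 and 8.2 FPKM, -0.86 ± 0.30, adjusted p = 0.045), a call lost under 11 of 15 alternatives. Without caMEK1 library 2 the cascade counts were 2 rises and 0 falls, and 3 rises and 1 fall both without control library 1 and without control library 2. Among 11 EGF receptor ligands and receptors tested, 4 rose and 1 fell, with a median of 0.99. Ereg (epiregulin) rose from 0.809 and 1.66 FPKM in control to 7.88 and 13.8 FPKM in caMEK1 cells (2.38 ± 0.47, adjusted p = 0.0014), and Btc (1.60 ± 0.35), Tgfa (1.02 ± 0.22) and the receptor gene Egfr (0.99 ± 0.27) also rose. Lrig1, which turns EGF receptors over, fell (-0.98 ± 0.26), and Areg (amphiregulin) did not pass the test (129 and 127 against 154 and 26 FPKM). Without caMEK1 library 2, Ereg was left as the 1 rise of the list and 0 falls were called. Without control library 2, Egfr and Lrig1 lost their calls, and without control library 1 Egfr did.

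The 15 largest rises included genes of surface and secreted proteins. Ly6g, a small GPI-anchored protein best known from neutrophils, went from 7.95 and 1.8 FPKM in control to 588 and 1009.9 FPKM in caMEK1 cells (7.27 ± 0.79, adjusted p = 4.6e-06). Its relative Psca, first described as prostate stem cell antigen, went from 0.758 and 0.179 to 199 and 211 FPKM (7.16 ± 0.33, adjusted p = 8.6e-11), and Ly6m from 13.3 and 3.67 to 535 and 887 FPKM (6.40 ± 1.00). In each of the 3 both caMEK1 libraries stood far above both control libraries. Sprr2h, which encodes a small proline-rich protein of cornified epithelia, was listed at 0 in both control libraries and at 69.5 and 105 FPKM in caMEK1 cells, as was the serine protease gene Prss22 (59.4 and 93.3 FPKM) and Msln, for the cell-surface protein mesothelin (38.1 and 111 FPKM). Against groups listed at 0 no fold is given. Pnliprp2, a lipase related to that of the pancreas, stood at 109 and 129 against 0.674 and 0.835 FPKM (6.09 ± 0.47, adjusted p = 7.3e-08). Il5ra, the interleukin 5 receptor chain, was at 26.9 and 86.5 against 0 and 0.0216 FPKM, and Aldh1a3, an enzyme that makes retinoic acid, at 70.3 and 181 against 3.09 and 0.334 FPKM (5.61 ± 0.55). The remaining members of the 15 largest rises were Sprr1a, Ly6c1, Clca4a, Bmp8b, Syt8 and Creb3l3, at 4.87 to 6.20 on the log2 scale. Of the 15, Clca4a (613 and 1869.5 against 44.7 and 15.9 FPKM) was the single gene to lose its call when a library was left out (adjusted p = 0.051 without caMEK1 library 2). Ly6g, Ly6c1, Sprr2h and Clca4a have near-identical relatives, and how reads were split between copies is not given in the sources used here.

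**Figure D2:**
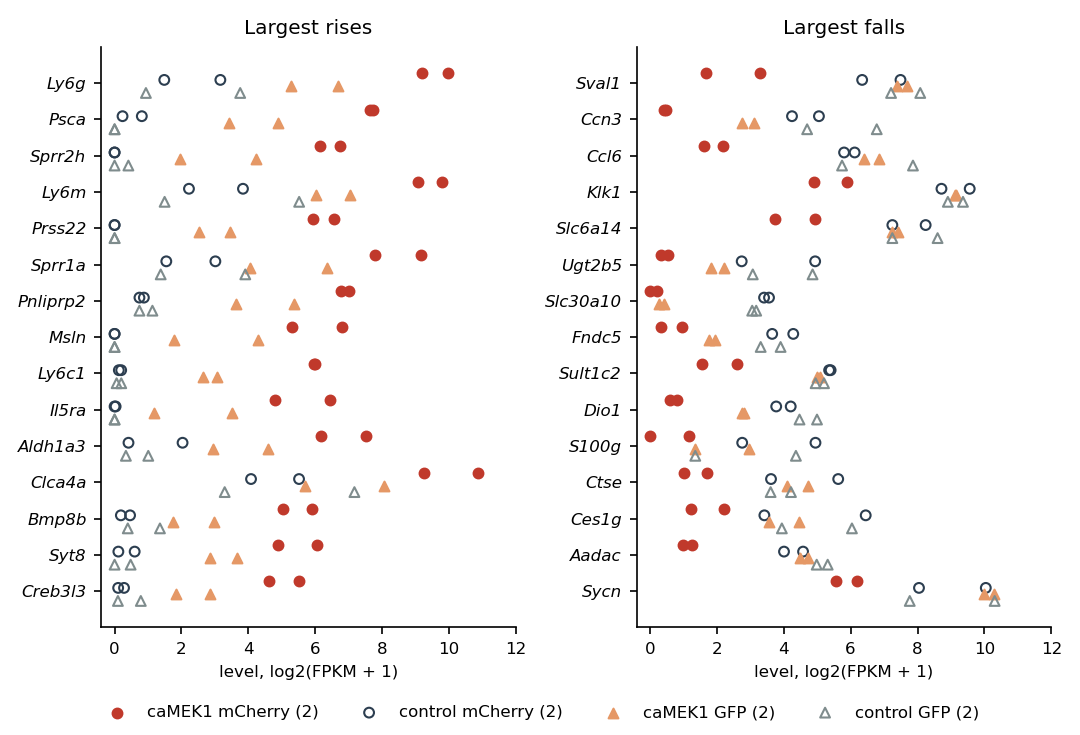
Level, as log2(FPKM + 1), of the 15 largest rises and 15 largest falls between caMEK1 and control mCherry cells, 1 point per library (filled, caMEK1; open, control; circles, mCherry cells; triangles, GFP cells; 2 libraries per group). The filled circles lie apart from the open circles in every row, and the caMEK1 GFP libraries lie between them for most of the rises.

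Ly6g is also a marker of neutrophils, so the rest of that cell type was read beside it. The 9 neutrophil markers summed to 590.3 and 1012 FPKM in caMEK1 and 8.03 and 1.8 FPKM in control cells, but without Ly6g the sums were 1.89 and 1.83 and 0.0714 and 0 FPKM. In all, 4 of the 9 were listed at 0 in all 4 libraries. The summed markers of lymphocytes (at most 0.177 FPKM), endothelium (at most 1.0) and enteric nerve and glia (at most 0.409) were near 0 in all 4 libraries, those of macrophages and dendritic cells stood at 1.37 to 2.94 FPKM, and those of stroma at 2.14 and 1.09 FPKM in caMEK1 and 6.56 and 3.75 FPKM in control cells. The part of the stromal and macrophage signal in other differences was not tested.

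The rises included most of the genes of the fetal-like, regenerating epithelium. Of 21 tested, 16 rose and 0 fell, with a median of 2.86. Ly6a, for the surface protein SCA-1, stood at 345 and 425 FPKM in caMEK1 and 29.3 and 23.3 FPKM in control cells (3.82 ± 0.46, adjusted p = 1.2e-05). Anxa1, a calcium-dependent phospholipid-binding protein, read 272 and 508 against 66.7 and 20.4 FPKM (3.29 ± 0.53, adjusted p = 0.00023), and its relatives Anxa2 (2.29 ± 0.33), Anxa3 (2.16 ± 0.38) and Anxa8 (2.86 ± 0.77) rose with it. All 4 annexin genes were above the controls in both caMEK1 animals. Cldn4, a tight junction protein, stood at 314 and 594 against 14.3 and 15.3 FPKM (4.78 ± 0.51, adjusted p = 3.3e-06). Emp1, a membrane protein, stood at 450.4 and 925 against 58 and 61.1 FPKM, F3, for tissue factor, at 85 and 236 against 19.4 and 12.6 FPKM, and Il1rn, for the interleukin 1 receptor antagonist, at 101 and 226 against 20.1 and 7.59 FPKM. The list was not complete: Clu, a chaperone that marks revival stem cells, read 7.45 and 13.5 against 5.92 and 1.84 FPKM and did not pass (1.32 ± 0.61, adjusted p = 0.13), nor did Il33, Ccnd2 and Gja1, among others. Leaving out 1 library left 12 to 15 members called, and Anxa8 lost its call without caMEK1 library 2 or control library 2, Emp1 without caMEK1 library 2.

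The overlapping lists for surface proteins and keratins moved the same way. Of 16 genes of the Ly6 and Psca family 11 passed the FPKM filter and were tested. Of these 6 rose and 0 fell, against 9.54% and 12% over all genes. The filter admits genes near 0 in control cells that are high in caMEK1 cells, which favours rises in this count. Ly6c1 (62.5 and 60.7 against 0.146 and 0.092 FPKM) and Ly6d (31 and 25.2 against 0 and 0.104 FPKM) were near 0 in control cells, and Ly6e was not called. The genes lie close together on mouse chromosome 15: between the start of Psca and the end of Ly6g (chr15:74714839-75159126, mm10 with GENCODE M21 gene models, a stretch chosen after the values were seen) 11 genes were tested, 9 rose and 0 fell, with Lynx1 (1.06), Them6 (1.50) and Gml (1.23) beside the family members named here. Of 24 squamous-type genes, normally of stratified epithelia, 11 passed the FPKM filter and were tested, and of these 7 rose and 0 fell. The filter admits genes that are high in 1 group alone, caMEK1 cells included, which favours rises in this count. With the filter set on the 4 libraries compared, 6 rose. Sprr1a stood at 219 and 577 against 7.07 and 1.92 FPKM (6.20 ± 0.94, adjusted p = 0.00014), while the squamous keratins stayed at low levels even in caMEK1 cells: Krt13 read 2.48 and 7.69 against 0.224 and 0 FPKM and Krt6a 1.51 and 3.18 FPKM against 0 in both controls. Among simple epithelial keratins 4 of 6 rose and 0 fell. Krt18 stood at 1655 and 2562 against 272 and 252 FPKM (2.97 ± 0.25, adjusted p = 1.9e-07), Krt7 at 115 and 265 against 10.5 and 20.3 FPKM and Krt23 at 53.4 and 73.5 against 2.45 and 5.42 FPKM. Krt20, a keratin of differentiated surface colonocytes, rose as well (895 and 1419.6 against 215 and 134 FPKM, 2.72 ± 0.73, adjusted p = 0.013), a call lost without caMEK1 library 2 (adjusted p = 0.13) or control library 2 (0.095). Of 15 integrin and laminin genes 9 rose and 2 fell. Lama3 (3.06 ± 0.65) and Lamb3 (2.54 ± 0.38), which encode laminin chains that anchor epithelia to their basement membrane, rose with the receptor chain gene Itgb4 (139 and 215 against 53.8 and 46.8 FPKM, 1.76 ± 0.25), whereas Itga1 (-1.22 ± 0.31) and Itga5 (-1.09 ± 0.22) fell. Krt6a, Lama3 and Itga1 were not called without caMEK1 library 2, nor Itga1 without control library 2, so that 1 of the 2 falls remained in either case.

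**Figure D3:**
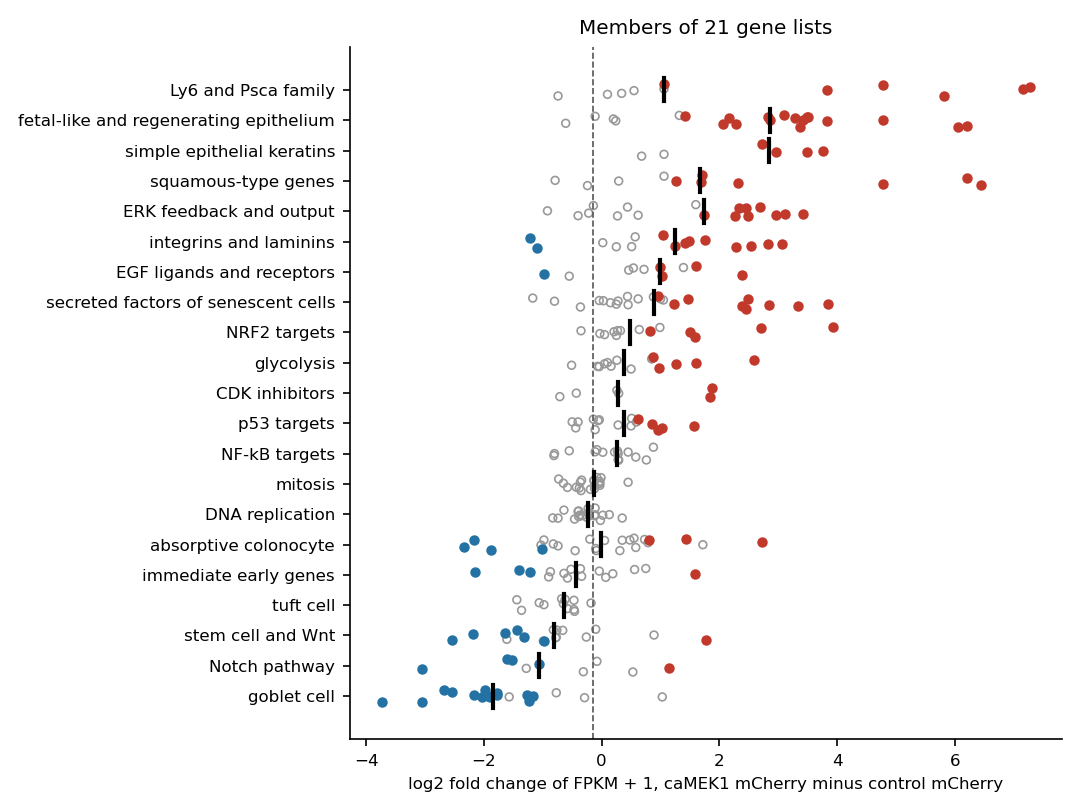
Log2 fold change of FPKM + 1, caMEK1 minus control mCherry cells, of the tested members of 21 gene lists (red, rose; blue, fell; grey open, not called; black bar, median of the list; dashed line, median of all genes at -0.14). The lists are ordered by hand from those that mainly rose (Ly6 and Psca family, fetal-like genes) to those that mainly fell (goblet cell genes, with 14 of 18 lower).

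Promoters were read for the letters of the AP-1 site, since AP-1 is a main output of ERK. RefSeq promoters (GRCm38.p6, 250 bases before to 50 after the start) were matched by symbol for 862 of the 1101 genes that rose and 1098 of the 1383 that fell. TGANTCA, which reads the same on both strands, was found in 12.3% of the genes that rose, 6.38% of those that fell, 6.31% of all tested and 8.97% of all genes in the promoter table. CCGGAAG, an ETS core searched on both strands, was in 17.7%, 13.3%, 20.6% and 9.93% of the same sets, and CTTTGAT, a TCF/LEF core, in 1.97%, 3.55%, 2.96% and 4.29%. These are descriptions with no test, and a match is not shown to be bound. Of the 15 largest rises 9 were in the promoter table and 5 of those held TGANTCA. Promoters of 4 genes that rose are shown as examples of where the letters lie, chosen after their matches were seen. They belong to Sprr1a (chr3:92485832-92486131, minus strand, 2 matches beginning 146 and 116 bases before the start), Sprr2h (chr3:92385435-92385734, plus strand, 1 match at 198 bases), Cldn4 (chr5:134946885-134947184, minus strand, 2 matches at 240 and 158 bases) and Plaur (chr7:24462233-24462532, plus strand, 1 match at 69 bases). Each is written 5′ to 3′ along the gene with TGANTCA in capitals. The windows of Ly6g, Ly6c1, Dusp5, Krt18, Krt7 and Slpi, which also rose, held no match.
Sprr1a: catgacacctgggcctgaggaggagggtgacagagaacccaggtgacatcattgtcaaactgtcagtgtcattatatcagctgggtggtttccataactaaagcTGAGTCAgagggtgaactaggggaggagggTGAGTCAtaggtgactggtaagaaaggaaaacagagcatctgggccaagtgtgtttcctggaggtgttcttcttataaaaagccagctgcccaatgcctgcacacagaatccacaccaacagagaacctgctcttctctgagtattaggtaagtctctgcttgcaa
Sprr2h: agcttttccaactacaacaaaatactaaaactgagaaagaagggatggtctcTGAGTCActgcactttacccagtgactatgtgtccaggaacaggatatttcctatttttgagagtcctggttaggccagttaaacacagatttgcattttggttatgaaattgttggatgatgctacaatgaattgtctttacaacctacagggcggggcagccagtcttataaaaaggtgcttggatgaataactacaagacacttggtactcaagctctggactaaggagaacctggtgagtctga
Cldn4: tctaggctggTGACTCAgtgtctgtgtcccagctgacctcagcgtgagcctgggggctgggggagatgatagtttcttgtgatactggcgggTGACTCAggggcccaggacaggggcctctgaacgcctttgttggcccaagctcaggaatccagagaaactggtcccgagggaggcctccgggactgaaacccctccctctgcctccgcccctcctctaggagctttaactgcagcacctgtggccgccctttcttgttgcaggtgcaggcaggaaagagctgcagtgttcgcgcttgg
Plaur: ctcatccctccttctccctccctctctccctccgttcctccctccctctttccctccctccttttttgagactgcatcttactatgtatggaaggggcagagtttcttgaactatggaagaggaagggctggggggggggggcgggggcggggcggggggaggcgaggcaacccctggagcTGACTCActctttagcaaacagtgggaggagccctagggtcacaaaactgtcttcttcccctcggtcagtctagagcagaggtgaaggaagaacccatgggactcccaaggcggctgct

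Cdkn1a, which encodes the CDK inhibitor p21, rose from 52 and 39.3 FPKM in control to 135 and 209.6 FPKM in caMEK1 cells (1.87 ± 0.45, adjusted p = 0.0068), a call lost without caMEK1 library 2 (adjusted p = 0.1) or control library 2 (0.06). Cdkn1c, for p57, stood at 15.2 and 15.7 against 2.24 and 5.53 FPKM (1.84 ± 0.42, adjusted p = 0.0049). Both genes were higher in each caMEK1 animal than in either control animal, as was every gene that rose. Cdkn1c lost its call without caMEK1 library 2 or control library 1. Cdkn2a, the locus of p16 and p19ARF, was too low to test: it was listed at 0.104 and 0.423 FPKM in caMEK1 and at 0 in both control libraries. Cdkn2b, for p15, was not called (46.1 and 43.9 against 55.7 and 25.2 FPKM, 0.26 ± 0.52). Lmnb1, the lamin gene lost in many senescent cells, read 19.6 and 24.9 against 18.8 and 38.2 FPKM and was not called (-0.27 ± 0.39, adjusted p = 0.66). Of 16 p53 targets 5 rose and 0 fell, among them Mdm2 (0.61 ± 0.16), Bax (0.95 ± 0.24) and Phlda3 (1.57 ± 0.40). That count was 2 without caMEK1 library 2 or control library 2 and 3 without caMEK1 library 1. Each of the 3 named targets lost its call in at least 1 of these or without control library 1.

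No fall of the division programme was called. Mki67 stood at 31.8 and 43.6 FPKM in caMEK1 and 36 and 70.9 FPKM in control cells (-0.43 ± 0.60, adjusted p = 0.64), and the groups overlapped. Of 20 mitosis genes 0 were called in either direction by limma, 0 at an unadjusted p below 0.05 and 0 in the count model, with a median of -0.13. Of 20 DNA replication genes 0 were called, 1 was lower at an unadjusted p below 0.05 and 0 passed in the count model, with a median of -0.24. The median of all genes was -0.14.

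Secreted factors of senescent cells rose in part. Of 23 tested, 9 rose and 0 fell, with a median of 0.89. The urokinase receptor gene Plaur stood at 41 and 81.8 against 3.67 and 2.57 FPKM (3.85 ± 0.47, adjusted p = 1.4e-05), and Plat, for tissue plasminogen activator, at 8.63 and 11.4 against 0.0653 and 0.0866 FPKM (3.34 ± 0.24). The chemokine gene Cxcl16 read 20.7 and 28.8 against 3.34 and 1.92 FPKM (2.84 ± 0.46), and Vegfa, the vessel growth factor, 34.7 and 104 against 10.3 and 9.69 FPKM (2.48 ± 0.35). In these 4 genes both caMEK1 libraries exceeded both controls several-fold. Tnf (6.17 and 6.2 against 1.54 and 1.65 FPKM), Lif (3.11 and 2.45 against 1.01 and 0.852 FPKM) and Cxcl5 (2.49 and 1.33 against 0.481 and 0 FPKM) rose from low levels. Tnf was not called when any 1 of the 4 libraries was left out, and Lif and Cxcl5 were not called without caMEK1 library 1 or control library 2. Il6 was listed at 0 in all 4 libraries, and Gdf15 did not pass the test (11.3 and 6.09 against 17.4 and 6.79 FPKM, -0.36 ± 0.50). Of 15 NF-kB targets 0 were called by limma or by the count model, against 1 higher and 2 lower at an unadjusted p below 0.05.

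Goblet cell genes fell. Of 18 tested, 14 fell and 0 rose, with a median of -1.84. Muc2, the gel-forming mucin of the colon, stood at 185 and 192 FPKM in caMEK1 and 612 and 2390.1 FPKM in control cells (-2.67 ± 0.65, adjusted p = 0.0069). The 2 control animals were far apart, and the lower of them still exceeded both caMEK1 animals. Atoh1, the transcription factor that sets the secretory fate, read 3.05 and 2.22 against 21.5 and 38.4 FPKM (-3.05 ± 0.46, adjusted p = 0.00013), and Spdef, which acts below it, 6.61 and 8.28 against 18.1 and 50.7 FPKM (-1.90 ± 0.61). Klk1, a kallikrein protease, had the largest fall of the list at 58.7 and 29.1 against 754 and 419.6 FPKM (-3.73 ± 0.38, adjusted p = 2.4e-06). These falls were seen in both caMEK1 animals. The trefoil peptide gene Tff3 (-2.54 ± 0.54), Reg4 (-2.17 ± 0.53), Fcgbp (-2.04 ± 0.53), Zg16 (-1.93 ± 0.59), Agr2 (-1.78 ± 0.48) and Spink4 (-1.78 ± 0.43) fell too, while Clca1, Galnt12, Ern2 and Sytl2 were not called. The count was 4 without caMEK1 library 2, 4 without control library 2 and 11 in the count model. Atoh1 and Klk1 kept their calls when any 1 library was left out, while Muc2, Spdef, Fcgbp, Zg16, Agr2 and Spink4 lost theirs both without caMEK1 library 2 and without control library 2.

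Some stem cell and Wnt genes fell. Of 17 stem cell and Wnt genes 6 fell and 1 rose, with a median of -0.82. Lgr5, the marker of cycling crypt stem cells, stood at 0.261 and 0.326 against 2.15 and 4.14 FPKM (-1.64 ± 0.34, adjusted p = 0.0023), and its partner in identity Ascl2 at 0.376 and 0.535 against 3.06 and 16.5 FPKM (-2.54 ± 0.62). The Wnt feedback gene Axin2 read 2.99 and 3.72 against 13.5 and 25.6 FPKM (-2.18 ± 0.40, adjusted p = 0.00086). All 3 were lower in both caMEK1 animals, and the controls differed between themselves. Sox9 (-1.43 ± 0.42) and Znrf3 (-1.31 ± 0.42) also fell, and Prom1 rose (115 and 111 against 21.5 and 48 FPKM). The count of falls was 3 without caMEK1 library 1, 2 without caMEK1 library 2, 2 without control library 2, 9 without control library 1 and 3 in the count model. Lgr5 and Axin2 kept their calls when any 1 library was left out, while Ascl2, Sox9 and Znrf3 did not. Of 9 Notch pathway genes 4 fell, among them the ligand genes Dll1 (-1.61 ± 0.34) and Dll4 (-1.53 ± 0.42) and Atoh1, which is also in the goblet list, and the ligand gene Jag2 rose (1.14 ± 0.24). The falls numbered 2 without caMEK1 library 2 or control library 2, and the rise was not called without caMEK1 library 2 or control library 1. Of 12 tuft cell genes 0 were called by limma or the count model, with 4 lower at an unadjusted p below 0.05 and 6 called lower without control library 1. Of 15 enteroendocrine genes 1 rose, no more than the share over all genes (9.54%). It was the granin gene Scg2 (3.39 and 3.94 against 0.356 and 0.184 FPKM).

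Of 24 absorptive colonocyte genes tested, 3 rose and 4 fell, close to the shares over all genes (9.54% and 12%), with a median of -0.02. Krt20, Vil1 (0.80 ± 0.24) and Cdhr2 (1.44 ± 0.42), the latter pair proteins of the brush border, rose, a count that was 0 without caMEK1 library 2 and 0 without control library 2. The water channel gene Aqp4 (32.5 and 14.3 against 108 and 95 FPKM, -2.17 ± 0.30) and the butyrate transporters Slc5a8 (34.3 and 17.7 against 189 and 87 FPKM, -2.33 ± 0.42) and Slc16a1 (-1.02 ± 0.28) fell, with Slc37a2 (-1.88 ± 0.61). Those 4 falls became 2 without caMEK1 library 2, when Slc16a1 and Slc37a2 lost their calls. Car1, a carbonic anhydrase of the proximal colon, was not called (4619.5 and 4161 against 2199.8 and 4462 FPKM), nor was Slc26a3, the chloride and bicarbonate exchanger (65.3 and 24 against 136 and 45.9 FPKM).

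The largest falls included genes of secreted proteins, transporters and detoxifying enzymes. Sval1, a seminal vesicle antigen-like protein, went from 179 and 80.3 FPKM in control to 8.72 and 2.22 FPKM in caMEK1 cells (-4.43 ± 0.53, adjusted p = 1.2e-05). The chemokine gene Ccl6 read 3.53 and 2.07 against 54.9 and 68.6 FPKM (-4.06 ± 0.52), and Ccn3, a matricellular protein, 0.382 and 0.346 against 18 and 32.2 FPKM (-4.20 ± 0.56). The manganese exporter gene Slc30a10 was nearly off at 0.169 and 0 FPKM in caMEK1 against 9.65 and 10.8 FPKM in control cells (-3.38 ± 0.30, adjusted p = 4.4e-07). The amino acid transporter gene Slc6a14 (29.6 and 12.4 against 302 and 151 FPKM), Fndc5, the precursor of irisin (0.927 and 0.269 against 18.5 and 11.6 FPKM), and Dio1, a deiodinase of thyroid hormone (0.743 and 0.503 against 17.5 and 12.7 FPKM), fell, with both caMEK1 libraries far below both control libraries. The conjugating enzymes Ugt2b5 (-3.40 ± 0.62) and Sult1c2 (-3.30 ± 0.42), the esterases Aadac (-3.17 ± 0.57) and Ces1g (-3.21 ± 0.87), the protease Ctse (-3.26 ± 0.55), the calcium-binding S100g (-3.26 ± 1.09) and the granule protein Sycn (-3.16 ± 0.69) completed the 15. Of these, S100g lost its call without caMEK1 library 1 (adjusted p = 0.061), caMEK1 library 2 (0.25) or control library 2 (0.3). Ces1g lost it without caMEK1 library 2 (0.14) or control library 2 (0.23), and Sycn without caMEK1 library 2 (0.055) or control library 1 (0.058).

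Metabolic and protective genes showed smaller sets. Of 14 NRF2 targets, which answer to oxidative stress, 5 rose and 0 fell, led by the glutathione transferases Gsta1 (45.3 and 52.6 against 1.53 and 3.23 FPKM, 3.93 ± 0.39) and Gsta4 (193 and 190.1 against 17 and 47 FPKM, 2.71 ± 0.36). That count was 3 without control library 2. Of 14 glycolysis genes 5 rose and 0 fell. The glucose transporter gene Slc2a1 stood at 164 and 281 against 44.4 and 27.3 FPKM (2.59 ± 0.39, adjusted p = 0.00011) and Eno1, for enolase, at 64.2 and 67.3 against 21.5 and 20.7 FPKM (1.60 ± 0.28), and 3 of the 5 were called without caMEK1 library 2. Of 18 genes of sterol and fatty acid synthesis 3 rose and 3 fell, with a median of 0.25. The shares over all genes were 9.54% higher and 12% lower, and in so short a list these counts are not far from them. The desaturases Scd1 (2.34 and 2.76 against 23.2 and 14 FPKM) and Scd2 (75.7 and 65.2 against 567 and 277 FPKM) fell, as did Acly, while Fdft1, Lss and Mvd, of sterol synthesis, rose, calls that were all lost without caMEK1 library 2 and without control library 2. Of 17 lysosome genes 5 fell and 2 rose. Those counts were 2 falls and 1 rise without caMEK1 library 2 and 3 falls and 1 rise without control library 2. The polymeric immunoglobulin receptor gene Pigr fell (701 and 288 against 1954 and 1706 FPKM, -2.02 ± 0.35), as did B2m, the light chain of MHC class I (122 and 82.2 against 391 and 368 FPKM, -1.91 ± 0.37). Of 11 MHC class I genes 2 fell and 1 rose, close to the shares over all genes (12% and 9.54%), with a median of 0.09. The falls were B2m and Erap1, the latter without a call when caMEK1 library 2 or control library 2 was left out. The rise was H2-D1, a call lost when any 1 of the 4 libraries was left out. In contrast, the oxidase gene Duox2 (1.86 ± 0.40) and its partner Duoxa2 (32.6 and 35.2 against 1.33 and 2.13 FPKM, 3.69 ± 0.38) rose, Duox2 without a call when caMEK1 library 2 or control library 1 was left out. Among 19 interferon response genes 1 rose, no more than the share over all genes (9.54%). That gene was Gbp2 (1.49 ± 0.36), a call that was lost without caMEK1 library 2 or control library 2.

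The next question was whether the change in mCherry cells differed from that in the GFP cells of the same animals. The contrast subtracts the difference between caMEK1 and control GFP cells from that between mCherry cells, and 371 genes (3.21%) passed, 199 with a positive (1.72%) and 172 with a negative difference (1.49%). Both colours came from the same mice, and with the animal as a random block 1932 genes (16.7%) passed, 788 positive (6.83%) and 1144 negative (9.91%). Scaling to a common median without the block gave 244 and 129. Without the block the count was 70 without caMEK1 mCherry library 2, 78 without caMEK1 GFP library 1 and 167 without control mCherry library 1, but 649 without caMEK1 mCherry library 1 and 1067 without control GFP library 2. Both library sets hold some RNA of the other colour. The MEK1 transgene in the caMEK1 GFP libraries was 4.27% and 12.2% of its level in the mCherry library of the animal, and the 15 largest rises stood there at 4.09% to 30.9% of their mCherry level. Psca, for example, read 9.8 and 28.5 FPKM in caMEK1 GFP cells, 4.93% and 13.5% of the mCherry level, and 0 in both control GFP libraries. The part of such carried-over cells or RNA in the GFP values was not tested.

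The 6 largest positive differences were led by Bmp8b, for a BMP family ligand, which read 2.33 and 6.86 FPKM in caMEK1 and 1.56 and 0.314 FPKM in control GFP cells against 32.1 and 59.3 FPKM in caMEK1 and 0.378 and 0.139 FPKM in control mCherry cells (difference 3.67 ± 0.57, adjusted p = 0.0023). Tmigd1, an adhesion protein of the brush border, read 92.9 and 81 FPKM in caMEK1 mCherry cells against 14.5 and 12.9 FPKM in control ones, and 16.6 and 15.9 against 74.1 and 17 FPKM in GFP cells (difference 3.67 ± 0.99, adjusted p = 0.048). Sprr2h (3.55 ± 0.60), Capg (3.51 ± 0.69), which caps actin filaments, Epop (3.36 ± 0.69) and the tropomyosin gene Tpm2 (3.31 ± 0.84) followed. Of 17 ERK feedback genes the difference was positive in 4, or 9 with the animal block, and of 21 fetal-like genes in 4, or 13 with the block, and negative in 0 of either. Spry4 differed without the block (1.85 ± 0.41, adjusted p = 0.018), whereas Dusp6 (1.94 ± 0.56) had an adjusted p of 0.065 without and 0.0012 with it.

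Goblet cell genes differed between the colours in the other direction. The difference was negative in 9 of 18, or 12 with the animal block, and positive in 0, and 3 of the 18 rose in GFP cells, where 3.7% of all genes were called (2.82% higher, 0.884% lower). Clca1, a secreted goblet protein, read 1996 and 2222 FPKM in caMEK1 GFP cells and 148 and 369 FPKM in control GFP cells, against 103 and 60.9 FPKM in caMEK1 and 154 and 369 FPKM in control mCherry cells (difference -4.74 ± 0.96, adjusted p = 0.011). Fcgbp, a mucus protein, read 1039.5 and 1028 against 128 and 359.8 FPKM in GFP cells and 90.2 and 83.3 against 210.1 and 615 FPKM in mCherry cells (-4.30 ± 0.75, adjusted p = 0.0045). Retnlb, a goblet defence protein, stood at 628 and 575 FPKM in caMEK1 GFP cells and at or below 91.5 FPKM in the other 6 libraries of caMEK1 and control animals on doxycycline (-4.86 ± 1.25, adjusted p = 0.04). Mptx1, a mucosal pentraxin, read 3938 and 4293 against 548 and 1681 FPKM in GFP cells and 85.6 and 67 against 474 and 376 FPKM in mCherry cells (-4.56 ± 0.83), and Spink1 136 and 137 against 17.3 and 23.5 FPKM in GFP cells (-4.31 ± 1.09). In these 5 genes the caMEK1 GFP libraries held the highest values of the 8 libraries. Across all 23 colon libraries that held for Clca1 and Fcgbp alone. Mptx1 read 8595 FPKM in untreated control GFP library 1. On doxycycline Retnlb read 579 FPKM in caMKK6 GFP library 1 and Spink1 239.6 FPKM in caMKK6 mCherry library 2. Sval1 was unlike these 5 genes, with a fall in mCherry cells and like levels in GFP cells (205 and 167 against 147 and 269.9 FPKM, difference -4.33 ± 0.75). For Muc2 the difference was not called without the block (-2.12 ± 0.91, adjusted p = 0.23) and was with it (0.021). For stem cell and Wnt genes the difference was called in 1 of 17 without the block, positive for Prom1, and in 2 positively and 1 negatively with it. In GFP cells 3 of the 17 fell, Lgr5 and Axin2, which fell in mCherry cells, and Cd44, which did not pass there. Lgr5 read 0.515 and 0.419 against 1.82 and 5.14 FPKM in GFP cells (difference -0.13 ± 0.48, adjusted p = 0.92).

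**Figure D4:**
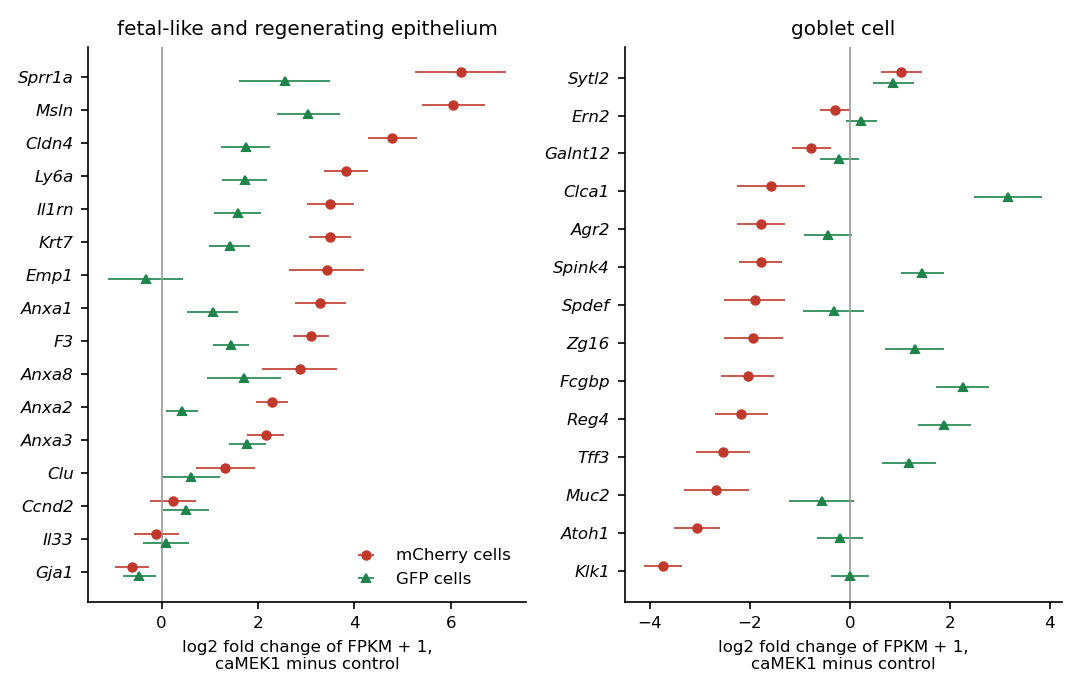
Log2 fold change of FPKM + 1 between caMEK1 and control cells in mCherry cells (red circles) and in GFP cells (green triangles) for the fetal-like and goblet cell genes named in the text, with standard errors from the fit (2 libraries per group). Most fetal-like genes lie above 0 in both colours and farther out in mCherry cells, while Clca1, Fcgbp and Reg4 lie below 0 in mCherry and above 0 in GFP cells.

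Finally, the 2 kinases were compared directly in mCherry cells. Between caMEK1 and caMKK6 cells 2389 genes (20.7%) differed, 988 higher (8.56%) and 1401 lower (12.1%) with caMEK1. Median scaling gave 1189 and 1195. Without caMEK1 library 2 the count was 964, without caMEK1 library 1 it was 1574 and without caMKK6 library 3 it was 1504. The largest differences upward were Pnliprp2 (109 and 129 FPKM with caMEK1 and 1.4, 3.72 and 0.593 FPKM with caMKK6, 5.51 ± 0.43, adjusted p = 1.2e-07), Il5ra (5.28 ± 0.45), Prss22 (4.48 ± 0.34), Sprr1a (4.37 ± 0.86), Ly6m (4.35 ± 0.92) and Ly6g (4.35 ± 0.72). ERK feedback genes were higher with caMEK1 in 9 of 17 and lower in 0, such as Spry4 (12.7 and 17.4 against 1.34, 0.781 and 1.26 FPKM, 2.91 ± 0.27). Phlda1 (0.21 ± 0.31) and Ier3 (0.39 ± 0.30), which rose against control cells, were among the members not called between the kinases. Fetal-like genes were divided, with 13 of 21 higher and 4 lower, and Ly6a itself did not differ by the test (345 and 425 against 515, 242 and 351 FPKM, 0.12 ± 0.42, adjusted p = 0.88). Anxa1 was higher with caMEK1 (1.88 ± 0.48). Clu was lower (7.45 and 13.5 against 131, 42.1 and 57.1 FPKM, -2.65 ± 0.56, adjusted p = 0.0026 in limma).

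Goblet cell genes were lower with caMEK1 than with caMKK6 in 16 of 18 and higher in 0, with a median of -2.62. Tff3 read 96.4 and 34.2 FPKM with caMEK1 and 1270.1, 1647 and 830.1 FPKM with caMKK6 (-4.36 ± 0.49, adjusted p = 8.9e-06). The other large differences downward were in secreted proteins that were high with caMKK6: Wfdc18, a protease inhibitor (0.5 and 0.102 against 299.6, 161 and 153 FPKM, -7.25 ± 0.56), Tff1 (0.867 and 0.705 against 84.8, 15.6 and 31.2 FPKM), Chit1, a chitinase (1.61 and 1.71 against 86.1, 28.2 and 23.7 FPKM), Spink1, a trypsin inhibitor (14.9 and 4.59 against 202, 239.6 and 96.7 FPKM), and Sval1 (8.72 and 2.22 against 207, 198 and 153 FPKM). Cdkn1a was higher with caMEK1 (135 and 209.6 against 57, 44 and 33.3 FPKM, 1.92 ± 0.41, adjusted p = 0.0031). Cdkn1c, which also rose against control cells, was not called between the kinases (15.2 and 15.7 against 15.2, 23.7 and 18.4 FPKM, -0.27 ± 0.39, adjusted p = 0.68 in limma). The plot of list levels by library places the caMEK1 mCherry libraries beside all other colon groups.

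**Figure D5:**
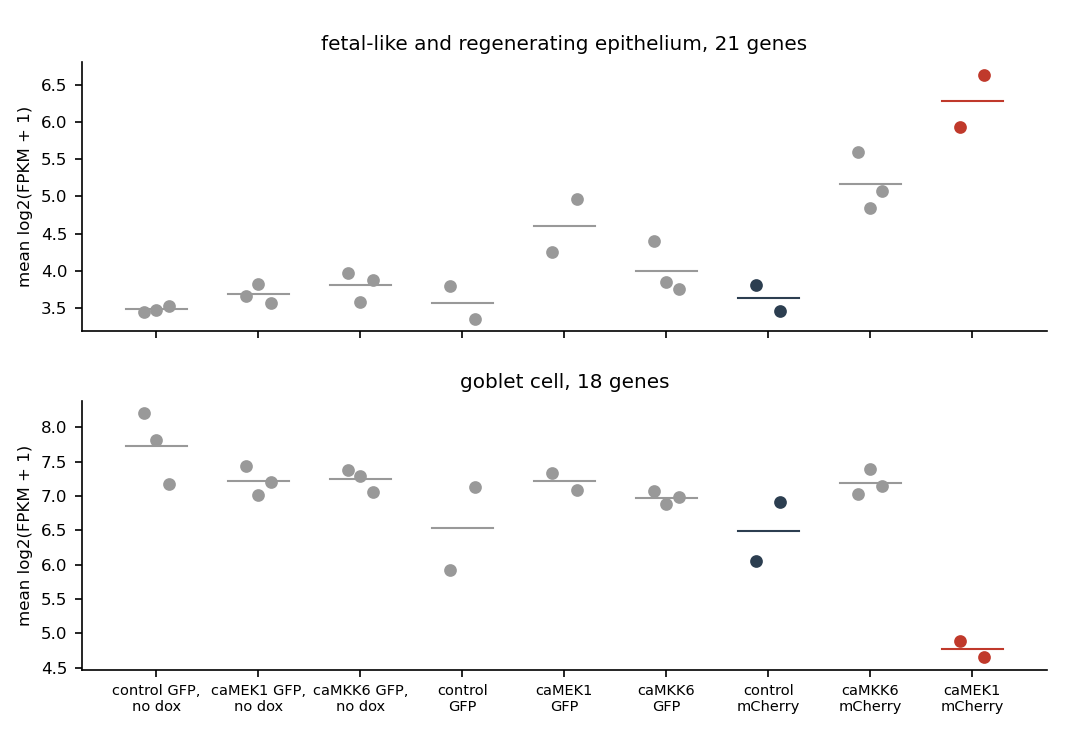
Mean log2(FPKM + 1) of the 21 fetal-like and 18 goblet cell genes in each of the 23 colon libraries by group (points, libraries; lines, group means; no dox, without doxycycline, all other groups with it). The caMEK1 mCherry libraries are at 5.93 and 6.64 for the fetal-like genes and at 4.89 and 4.65 for the goblet genes, against 3.81 and 3.46 and against 6.05 and 6.92 in control mCherry cells.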

How the data were processed

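Bulk RNA of colon crypt epithelium, sorted by colour with dead cells gated out by DAPI, was sequenced from 50 ng of RNA with a RIN above 8, per the labels' protocols. The authors deposited 1 table of FPKM for 70 libraries; reads were trimmed with cutadapt 1.12 and aligned with STAR 2 to mm10, per the submitters' processing notes. The counting tool, annotation and handling of multiply mapped reads are not given in the sources used here. FPKM multiplied by GENCODE M21 exon lengths gave whole reads in 100% of the lower values (tolerance 0.02), and the depths come from there.

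Genes with at least 1 FPKM in at least 2 of the 23 colon libraries were kept, and log2(FPKM + 1) of all 9 colon groups was fitted in 1 model (limma 3.58.1 with a mean-variance trend, R 4.3.3, 14 residual degrees of freedom), two-sided, with Benjamini-Hochberg adjustment over all genes and a threshold of 0.05. The samples were grouped by label. The animal block was a random effect (consensus correlation 0.474), since both colours came from the same animals and deviated together (r across genes 0.527 in caMEK1 and 0.707 in control animals). Alternatives were another pseudocount (0.1), other filters, scaling and sample sets, a count model (voom) on the recovered reads, blocks and leaving out each library; the closing section gives their effect. The fit was tested on simulated data.

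Named genes were 25 sentinels, the reporters, the 15 largest rises and falls (called, not overlapping, at least 5 FPKM in the higher group, no predicted genes), up to 6 called members of each of 49 lists (any member of the ERK list or of short lists), and the 6 largest differences each way in the other contrasts. Of the lists, those not named in the text are not reported singly, and some members are not reported here. The members and lists were chosen with earlier results of these data known, and some further list members were named after their values were seen. The FPKM filter keeps genes that pass through 1 group alone.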

Additional observations from a re-analysis of the deposited data

Results flagged for a closer look

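Among the 53 sentinel genes and largest changes examined, the caMEK1 effect differed between mCherry and GFP cells in 18 (limma, adjusted p below 0.05), and in 34 with the animal as a block (23 positive, 11 negative). Over all genes the shares were 3.21% and 16.7%, and most of the 53 were picked for a large change in mCherry cells, which is a term of this difference. The 10 positive differences on the log2 scale were those of Bmp8b (3.67), Sprr2h (3.55), Il5ra (3.27), Prss22 (3.26), Ly6c1 (3.08), Psca (3.0), Creb3l3 (2.96), Ereg (2.53), Pnliprp2 (2.53) and Spry4 (1.85). The 8 negative ones were those of Sval1 (-4.33), Sycn (-4.26), Ccl6 (-3.88), Ctse (-3.76), Klk1 (-3.74), Sult1c2 (-3.26), Slc6a14 (-2.8) and Fndc5 (-1.58). The MEK1 transgene was read at 12.3 and 28.7 FPKM in the caMEK1 GFP libraries, whose cells were sorted by the other colour, while it is listed at 0 in all control libraries on doxycycline. Its part in these differences was not tested.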

How the results depend on the processing

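The 2484 genes called between caMEK1 and control mCherry cells became 673 when the 4 libraries were fitted alone, with 2 residual degrees of freedom, and 808 to 1936 when 1 of the 4 was left out, lowest without caMEK1 library 2; an arm of 1 library is then assumed to vary like the other groups. The remaining settings without a block gave 1849 (7 mCherry libraries) to 3270 (untreated caMEK1 GFP cells as comparator), with 2141 in the count model. The numbers in the titles belong to different mice, and same-numbered libraries of the 2 mCherry groups deviated with r of 0.019, so they share only a number; a replicate block by that number gave 1498 calls here, 54 in the difference between colours and 1035 between the kinases. For the difference between colours, 371 calls became 148 in the count model, 1932 with the animal block and 70 to 1067 with 1 library left out. Between the kinases, 2389 calls became 964 to 2436 with 1 library left out. Leaving out the caMKK6 and GFP libraries was added after seeing the data. Of 224 genes followed singly, 94 kept their direction but lost the call without caMEK1 library 2 and 73 without control library 2, against 20 with no filter, 17 in the count model and 3 with a pseudocount of 0.1. Among these 224 the sign turned only in genes that were not called; of all 2484 calls, 6 changed sign with untreated caMEK1 GFP cells as comparator, none of them with a call. With 1 library left out, the log2 fold change ran from -0.21 to 0.78 for Map2k1, -0.30 to 0.81 for Cdkn2b, -0.76 to 0.22 for Lmnb1, -0.91 to 0.05 for Mki67, -0.99 to 0.54 for Ccnd1 and -0.27 to 2.26 for Areg, each turning without control library 2. It ran from -0.97 to 0.26 for Gdf15 (turning without caMEK1 library 2, at 0.04, or control library 1) and -0.03 to 0.99 for Car1 (turning without control library 1). The cause was not tested.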

Other observations

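Genes of the circadian clock differed between the caMEK1 and control animals (a group chosen after its values were seen). Of 15 tested, 6 rose (Dbp, Tef, Ciart, Per3, Cry2 and Nr1d2) and 3 fell (Arntl, Npas2 and Nfil3) in caMEK1 mCherry cells, and 5 rose and 2 fell in GFP cells. Over all genes 9.54% rose and 12% fell in mCherry cells, and 2.82% rose and 0.884% fell in GFP cells. The difference between colours was called in 0 of the 15 by limma, and in 1 with the animal block, negatively. Cry2, Nr1d2, Npas2 and Nfil3 lost their mCherry call when 1 or more libraries were left out in turn. Tef, an output factor of the clock, stood at 17.2 and 10.2 FPKM in caMEK1 and 1.33 and 1.99 FPKM in control mCherry cells, and at 15.7 and 9.53 and 1.24 and 2.11 FPKM in the GFP cells of those animals. Arntl, which encodes the core activator BMAL1, stood at 2.8 and 3.89 against 15.2 and 9.63 FPKM in mCherry and 2.42 and 4.85 against 17.2 and 7.83 FPKM in GFP cells. The hour at which each animal was taken is not given in the sources used here, and its part in other differences was not tested.

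Genes that make and carry retinoids moved as well, again chosen after their values were seen. Of 11 tested, 5 rose and 2 fell in caMEK1 mCherry cells. Over all genes 9.54% rose and 12% fell, and in so short a list the falls are not far from that share. Beside Aldh1a3, the retinol dehydrogenase gene Rdh10 stood at 33.3 and 48.2 against 6.42 and 6.62 FPKM (2.45 ± 0.21, adjusted p = 2.7e-07 in limma) and Dhrs9 at 47.1 and 118 against 4.57 and 2.04 FPKM. Lrat, which stores retinol as an ester, fell to 0.592 and 0.185 FPKM from 1.81 and 5.9 FPKM (-1.68 ± 0.36, adjusted p = 0.0027), and Rbp4 fell too. Both falls lost their call without caMEK1 library 2 or control library 2. In these genes the caMEK1 and control libraries did not overlap, as in every called gene.

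Among 4 hindgut Hox genes, which mark position along the colon, Hoxb13 (42.7 and 18.7 against 268 and 45.2 FPKM) and Hoxd13 (2.26 and 2.1 against 46.5 and 5.5 FPKM) fell in caMEK1 mCherry cells (-1.93 ± 0.60 and -2.47 ± 0.70), with adjusted p = 0.028 and 0.017 in limma. Without control library 1 the log2 fold changes were -0.66 and -1.03, with adjusted p = 0.41 and 0.28. Both calls were also lost without caMEK1 library 2, and that of Hoxd13 without caMEK1 library 1. In GFP cells the caMEK1 libraries read 192 and 147 FPKM for Hoxb13 and 15.9 and 19 FPKM for Hoxd13, against 176 and 65.8 and 22.6 and 8 FPKM in control.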
